A study of Mus musculus with 20 samples.

Results

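Spon1 and Cdh1 are a pair of mouse genes whose H3K27ac peaks were far higher in fasted livers without Ppara than in fasted livers with it, and they were chosen by those H3K27ac folds. Their members are all intervals of the authors' consensus lists for H3K27ac, H3K4me1 and H3K9ac whose middle lay in or within 50 kb of either gene body. This gave 98 of 215358 intervals, 47 around Spon1 (14 H3K27ac, 32 H3K4me1 and 1 H3K9ac) and 51 around Cdh1 (13 H3K27ac, 34 H3K4me1 and 4 H3K9ac). Spon1 spans chr7:113765998-114043375 (277.4 kb) and Cdh1 spans chr8:106603350-106670247 (66.9 kb) in mm10. A member interval's value in a library is its peak fold, the highest fold enrichment that the authors' peak caller gave to a peak of that library overlapping the interval. An interval without such a peak has no call.

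Spon1 encodes F-spondin, a secreted matrix protein with thrombospondin repeats that is known from axon guidance and that binds the amyloid precursor protein and lipoprotein receptors. Cdh1 encodes E-cadherin, the calcium-dependent adhesion protein of epithelial junctions, which catenins tie to the actin cytoskeleton. In liver, E-cadherin is known from bile duct cells and from hepatocytes near the portal vein. H3K27ac marks active promoters and enhancers, H3K4me1 marks enhancers whether active or not, and H3K9ac marks mostly active promoters. Ppara is the nuclear receptor that switches on fatty acid oxidation genes in the fasted liver, and Cpt2 is the mitochondrial enzyme that frees long-chain acyl groups from carnitine for oxidation.

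The livers came from male C57BL/6 mice of 9 weeks that had eaten standard chow and were then fasted for 24 h. There were 4 genotypes with 2 livers each for H3K27ac and H3K4me1. They were wild type (WT), Cpt2 L-/- with Cpt2 removed in the liver only (Cpt2 KO), Ppara -/- lacking Ppara in the whole body (Ppara KO), and Cpt2 L-/- with Ppara -/- (double knockout, DKO). For H3K9ac there was 1 liver each of WT and Cpt2 KO, and pooled inputs were the controls. The Cre line that removes Cpt2 is not given in the sources used here. WT and Cpt2 KO livers together are called Ppara-intact, and Ppara KO and DKO livers Ppara-null. Replicates are separate livers by their labels, both marks came from the same livers, and the liver numbers in the peak names fall in separate series for Ppara-null and Ppara-intact mice, so that series and Ppara state cannot be told apart. In bulk liver, fewer cells of a type and less signal per cell cannot be told apart either.

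The libraries held 44454 to 48929 H3K27ac peaks and 61189 to 72151 H3K4me1 peaks, and read depth is unknown from these files. Of the intervals in or within 5 kb of Ppara, 1 of 26 for H3K27ac and 2 of 36 for H3K4me1 were called in all 4 Ppara-intact and no Ppara-null library, and 1 H3K27ac interval showed the opposite. For Cpt2, 1 of 4 H3K27ac intervals and 0 of 6 H3K4me1 intervals were called in all 4 libraries with Cpt2 and none without it. All 11 hepatocyte markers had an H3K27ac peak in at least 1 library, and 10 to 11 had one in each library. Among the bile duct markers, Krt19, Krt7, Cftr and Spp1 had no H3K27ac peak in any of the 8 libraries. The summed fold of the bile duct list was 56.1 to 82.2 in Ppara-intact and 36.4 to 70.8 in Ppara-null libraries. Other cell types overlapped between the states as well: 30.4 to 59.3 against 14.2 to 51.9 for stellate and fibroblast markers (Col1a1, Col1a2, Lum and Ngfr at no peak throughout), 150.5 to 255.4 against 160.9 to 247.0 for endothelial markers, and 36.8 to 88.7 against 56.0 to 96.6 for Kupffer and leukocyte markers (Cd3e, Itgam and Marco at no peak). Kupffer and leukocyte genes with a peak numbered 4 to 6 of 12 in Ppara-intact and 6 to 8 in Ppara-null libraries, and their part in the results below was not tested. By Cpt2 state, 3 of these summed folds did not overlap: with Cpt2 against without it, they were 14.2 to 31.3 and 41.4 to 59.3 for stellate and fibroblast markers, 150.5 to 177.6 and 228.5 to 255.4 for endothelial markers, and 36.8 to 58.9 and 86.2 to 96.6 for Kupffer and leukocyte markers. These sums were not centred. The median fold of all H3K27ac peaks of a library did not overlap either, at 6.69 to 7.17 with Cpt2 and 7.42 to 8.21 without it. The part of these cell types in the Cpt2 and DKO results was not tested.

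The Spon1 body held a single H3K27ac interval that was called in every library, chr7:113960150-113963520, centred 195.8 kb from the lower-coordinate end of the gene. Its peak fold was 6.17 and 5.80 in the WT livers and 3.43 and 4.12 in the Cpt2 KO livers. It was 20.7 and 22.9 in the Ppara KO livers and 17.6 and 28.9 in the DKO livers. Every Ppara-null liver was therefore far above every Ppara-intact liver. The means were 22.5 ± 4.8 (SD, n = 4) and 4.88 ± 1.31 (SD, n = 4), a ratio of 4.61. This contrast was used to choose the gene, so the values are a description without a test. On the log2 scale, after each library was centred on its median, the difference was 2.19, rank 1 among the 18281 H3K27ac intervals called in all 8 libraries. Over all intervals 7.34% passed in this contrast, 3.19% as higher and 4.15% as lower. The value stayed between 2.06 and 2.32 over the 14 alternatives that could be run. At a −log10 q of at least 10 the interval was no longer called in all libraries, and no value was had.

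**Figure D1:**
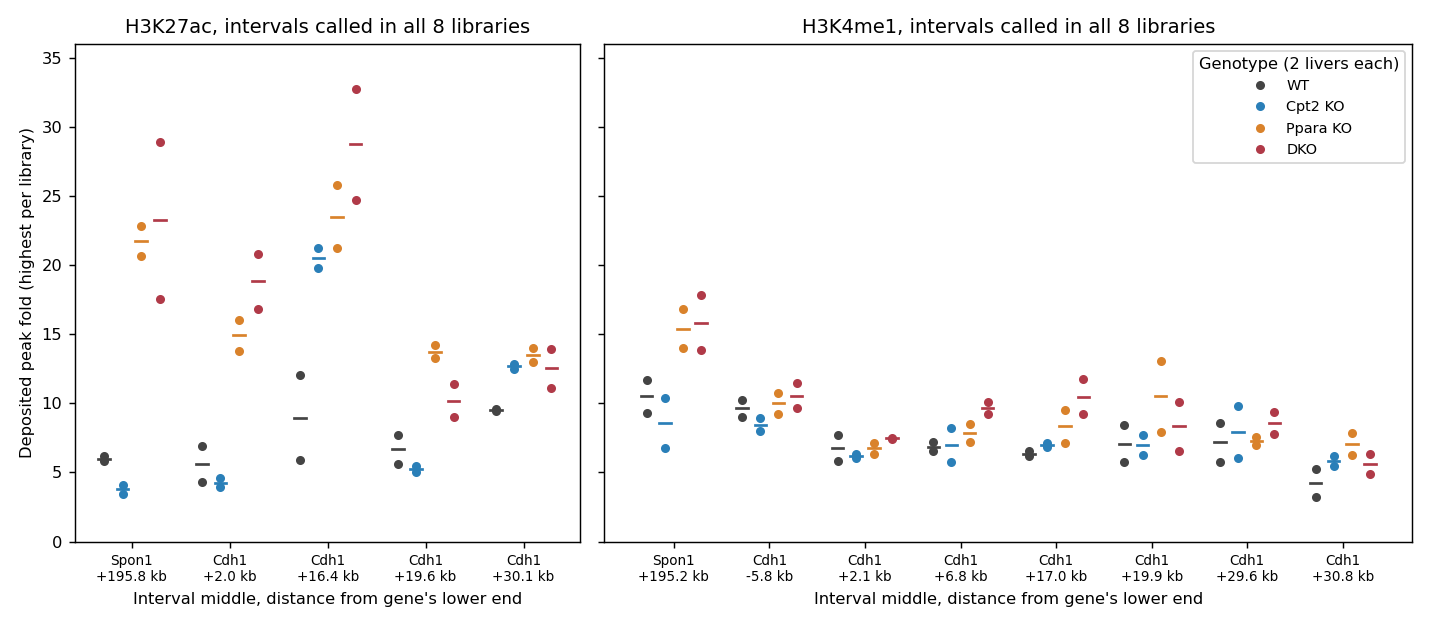
Deposited peak fold (vertical axis, from 0) in each liver at the member intervals nearest to Spon1 or Cdh1 that were called in all 8 libraries of H3K27ac (left) or H3K4me1 (right); points are livers, short lines are genotype means of 2 livers, and labels give the distance of the interval's middle from the gene's lower end. The H3K27ac folds of the Spon1 interval and the Cdh1 start interval are 13.8 to 28.9 in Ppara-null and 3.43 to 6.93 in Ppara-intact livers, while the H3K4me1 folds of the Cdh1 start interval are 5.83 to 7.72 in all of them.

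The acetylated stretch within Spon1 was also longer without Ppara. Peaks covered 254 to 742 bases of the interval in the Ppara-intact libraries and 2741 to 3371 bases in the Ppara-null libraries. The summits stayed in place, since they lay within 113961660 to 113961991 on chromosome 7 in all 8 libraries. The peak caller's −log10 q was 5.80 to 17.3 with Ppara and 108.8 to 162.8 without it.

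At the same place H3K4me1, the mark on which the choice of gene did not rest, was present in every liver, and its difference between Ppara states did not pass an adjusted p under 0.05. The H3K4me1 interval chr7:113960088-113962275 had folds of 9.33 and 11.7 (WT), 10.4 and 6.80 (Cpt2 KO), 14.0 and 16.8 (Ppara KO), and 17.8 and 13.9 (DKO). All 4 Ppara-null values exceeded all 4 Ppara-intact values, with means of 15.6 ± 2.01 (SD, n = 4) and 9.57 ± 2.09 (SD, n = 4), a ratio of 1.63. The log2 difference was 0.73 (SE 0.19) with an adjusted p of 0.131 by limma. The adjustment was Benjamini-Hochberg over the 19526 intervals tested, of which 0.128% passed. The Cpt2 KO livers overlapped least in H3K4me1. There, 55.0% of replicate 2 peaks overlapped a replicate 1 peak, against 71.6% to 76.9% in the other genotypes. The part of this in the H3K4me1 results was not tested. Leaving out the Cpt2 KO replicate 1 library gave an adjusted p of 0.0202, and taking each library's smallest peak width as a covariate gave 0.544.

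Elsewhere in the Spon1 body, H3K27ac was called in the DKO livers and not in the Ppara KO livers, and H3K4me1 mainly in the Ppara-null livers. The other 9 H3K27ac intervals of the body were called in DKO livers only, against 10.3% of all H3K27ac intervals. Of these 9, 7 were called in DKO replicate 2 alone, against 5.49% of all intervals. The remaining 2 were called in both DKO livers (2.26% of all intervals), at 113778699-113778978 with folds of 7.17 and 8.60 and at 113909363-113909752 with folds of 6.43 and 7.0. The number of H3K27ac intervals called in the body was thus 1 in each of 6 libraries, 3 in DKO replicate 1 and 10 in DKO replicate 2. The excess in the DKO rests largely on that last library. Of the 10 intervals, 9 shared bases with an H3K4me1 interval.

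H3K4me1 intervals of the Spon1 body numbered 15, and 11 of them were called in at least 1 Ppara-null and no Ppara-intact library, against 16.7% of all H3K4me1 intervals. Calls in DKO livers only made up 6 of the 15 (7.17% of all), of which 3 were in both DKO livers (1.22%) and 2 in DKO replicate 2 alone (4.24%). Called intervals among the 15 numbered 1 and 1 (WT), 4 and 1 (Cpt2 KO), 6 and 8 (Ppara KO), and 13 and 14 (DKO). Bases under H3K4me1 peaks came to 0.797 and 0.795 kb (WT), 1.95 and 0.602 kb (Cpt2 KO), 2.98 and 5.63 kb (Ppara KO), and 8.72 and 11.3 kb (DKO). Each Ppara-null liver thus had more of the gene under H3K4me1 than each Ppara-intact liver, and the DKO livers had the most. The share of all genes with such an order of covered bases was not counted, so a local pattern cannot be told from differences between whole libraries. H3K4me1 libraries also differed in their smallest peak width, whose part in these counts and lengths was not tested. The following split cannot separate width from Ppara state, since each width class has only 1 Ppara-null or only 1 Ppara-intact library. Among the libraries at 196 to 200 bases, the 3 Ppara-intact ones had 1 interval called and the Ppara KO replicate 1 library had 6. Among those at 210 to 221 bases, the Ppara-intact library (Cpt2 KO replicate 1) had 4 and the 3 Ppara-null ones had 8 to 14.

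Under a rule of at least 3 of 4 Ppara-null and 0 of 4 Ppara-intact libraries, 5 of the 32 H3K4me1 intervals around Spon1 were gained and 0 were lost, against 1.96% and 2.84% of all H3K4me1 intervals. All 5 lay within the gene. The nearest to its lower end, 8.7 kb inside at 113774234-113775137, had folds of 5.65 and 8.43 (Ppara KO) and 11 and 8.29 (DKO). The next, at 113778118-113779059, had folds of 6.50 and 4.57 (Ppara KO) and 10.0 and 8.67 (DKO). These neighbouring intervals were the ones called in all 4 Ppara-null libraries. The interval at 113779123-113779571 was called in Ppara KO replicate 2 (8.84) and both DKO livers (8.21 and 8.40). The interval at 113909149-113910218 was called in the same 3 libraries at lower folds (5.38, 5.42 and 6.38). The interval at 113910520-113911357 lacked a call in Ppara KO replicate 2 and had 6.14 in Ppara KO replicate 1 and 5.33 and 4.62 in DKO livers. The count depended on single libraries: it was 2 when either DKO library was left out, 3 when Ppara KO replicate 2 was, and 8 when Cpt2 KO replicate 1 was. Those 4 libraries are the ones with the wider smallest peaks.

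**Figure D2:**
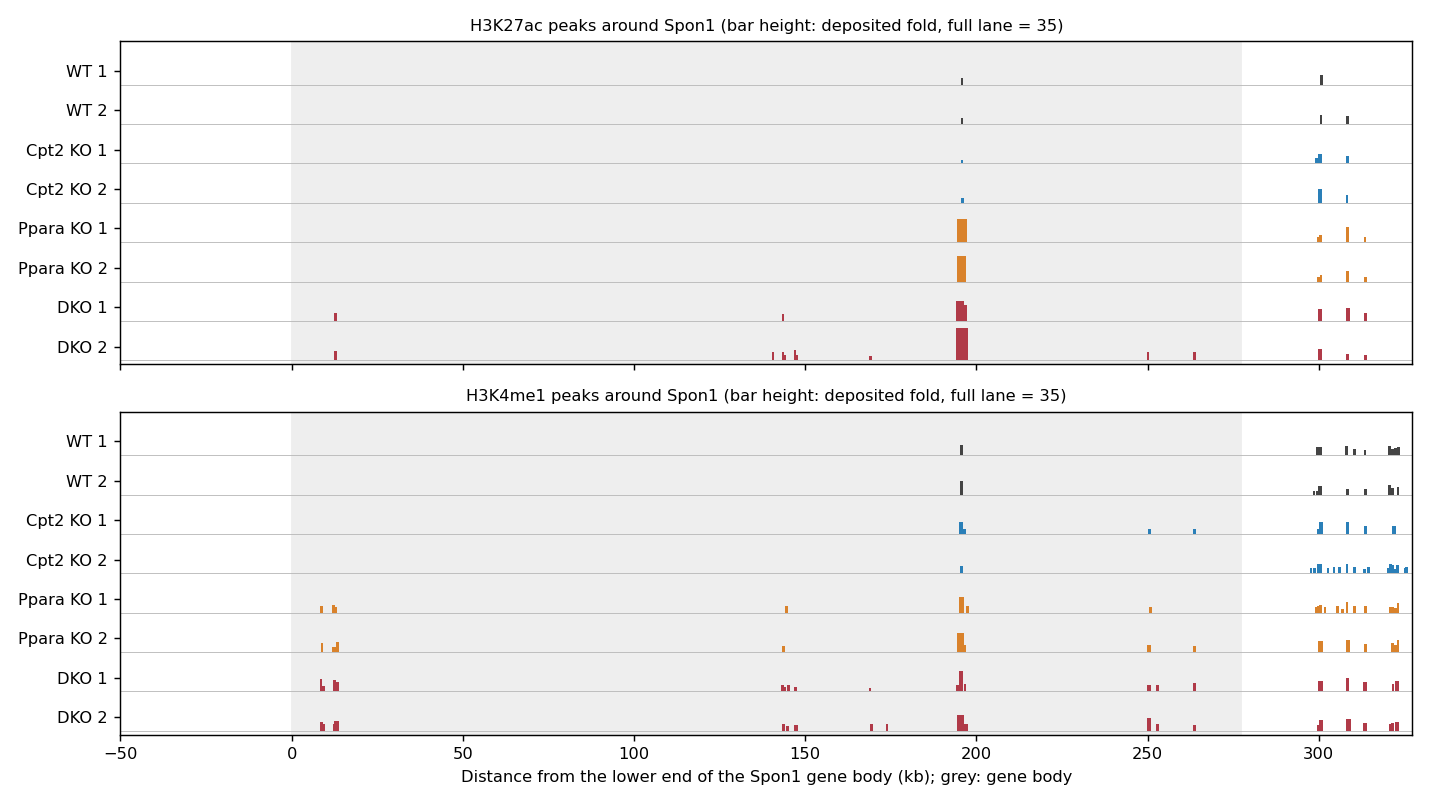
Peaks of each library around Spon1, drawn by distance in kb from the lower end of the gene body (grey), with H3K27ac above and H3K4me1 below; bar height is the deposited fold on a scale where a full lane is 35, and narrow peaks are drawn slightly wider than they are. The intragenic H3K27ac peak near 195.8 kb has a fold of 3.43 to 6.17 in the 4 upper lanes and 17.6 to 28.9 in the 4 lower ones, and no peak lies in the 50 kb before the gene's lower end.

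No member interval of any mark lay within 50 kb below the lower end of Spon1, where the gene is known to begin. The H3K4me1 interval at 8.7 kb and the H3K27ac interval at 12.8 kb were the nearest to it. The sole H3K9ac interval of the window, called in WT (114066234-114066983) and in Cpt2 KO (114066324-114066600), lay in the neighbouring gene Rras2, which encodes a small GTPase of the Ras family.

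The intervals of the Spon1 window that lay in Rras2 varied in their pattern. The H3K27ac interval 114065749-114067079 had folds of 8.75 and 8.35 (WT), 8.29 and 11.9 (Cpt2 KO), 5.97 and 6.02 (Ppara KO), and 10.5 and 10.0 (DKO). The groups overlapped, with a log2 difference of −0.27 between Ppara states. The H3K27ac interval 114079225-114079974 was called in the 4 Ppara-null libraries only, with folds of 4.17, 4.29, 7.0 and 4.75, and was the 1 gained interval among the 14 of the window, against 1.63% of all H3K27ac intervals. It had no call of −log10 q at or above 10 in enough libraries to count under that stricter limit. Another, at 114073930-114074994, was called in 7 libraries, at 6.80 to 7.40 in 3 Ppara-intact livers and at 6.00 to 13.2 in the Ppara-null livers. The last, at 114065279-114065572, was called in Cpt2 KO replicate 1 alone (4.75). Of the 17 H3K4me1 intervals in Rras2, 4 were called in all 8 libraries and none of these passed for Ppara (adjusted p 0.297 to 0.859, limma). A further 8 were called in Ppara-intact libraries only, 7 of them in Cpt2 KO replicate 2 alone. That library had the most H3K4me1 peaks (72151), of which 55.0% overlapped a peak of its replicate. The shares of all H3K4me1 intervals with these 2 patterns were not counted, so a local pattern cannot be told from that library's background.

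At Cdh1 the largest difference in H3K27ac lay at the start of the gene. The interval chr8:106603272-106607370 runs across the lower end of the gene body, where transcription of Cdh1 is known to begin. Its folds were 4.32 and 6.93 (WT), 4.61 and 3.94 (Cpt2 KO), 13.8 and 16.0 (Ppara KO), and 20.8 and 16.9 (DKO). Every Ppara-null liver was at least 13.8 and no Ppara-intact liver was above 6.93. The means were 16.9 ± 2.92 (SD, n = 4) and 4.95 ± 1.35 (SD, n = 4), a ratio of 3.41. The log2 difference of 1.76 ranked 3 among 18281 intervals and, as for Spon1, is a description of the contrast by which the gene was chosen.

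In all libraries but WT replicate 2, the highest H3K27ac peak of this interval had its summit further inside the gene, away from the lower end. Summits lay 2.74 to 2.92 kb from the lower end in the 4 Ppara-null libraries and 2.63 to 2.67 kb from it in 3 Ppara-intact libraries. The highest peak of WT replicate 2 had its summit near the end, at 0.23 kb. Separate peaks at the end were also called in DKO replicate 2 (from 0 to 1547 bases, fold 14.75, against 16.85 for its highest peak) and in Ppara KO replicate 2 (from −1 to 262 bases, fold 6.65). Peaks covered 221 to 2013 bases of the interval with Ppara and 2685 to 4037 bases without it. H3K9ac was called at the very start in both livers profiled for it, at 106603310-106604796 in WT and at 106603252-106604155 in Cpt2 KO. Whether these are livers also profiled for H3K27ac is not given in the sources used here.

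H3K4me1 at the start of Cdh1 stayed within a narrow range across the genotypes. The interval chr8:106602935-106607875 had folds of 5.83 and 7.72 (WT), 6.04 and 6.35 (Cpt2 KO), 6.35 and 7.16 (Ppara KO), and 7.46 and 7.5 (DKO). The Ppara groups overlapped, with means of 7.12 ± 0.535 (SD, n = 4) without Ppara and 6.49 ± 0.851 (SD, n = 4) with it. The log2 difference was 0.14 (SE 0.19) with an adjusted p of 0.788 by limma. A p above the threshold does not show that the levels were equal.

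Within the gene, 3 further H3K27ac intervals were called in all 8 libraries, and they differed in which genotypes were high. The strongest, chr8:106618670-106620924, centred 16.4 kb inside the gene, had folds of 5.87 and 12.1 (WT), 21.2 and 19.8 (Cpt2 KO), 25.8 and 21.2 (Ppara KO), and 24.7 and 32.8 (DKO). Here the WT livers were the low ones, and the Cpt2 KO livers came close to the Ppara KO livers. The Ppara log2 difference was 0.94 (rank 157), and the Cpt2 log2 difference was 0.52 (SE 0.19, adjusted p 0.0811, limma). Subtracting the Cpt2 effect with Ppara from the one without Ppara (the interaction) gave −1.09 (SE 0.37) with an unadjusted p of 0.0111 and an adjusted p of 0.207. H3K9ac was called inside this interval as well, over 203 bases in WT and over 531 and 217 bases in Cpt2 KO.

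The adjoining interval chr8:106621162-106624821, centred 19.6 kb inside, followed another order. Its folds were 5.60 and 7.74 (WT), 5.0 and 5.50 (Cpt2 KO), 14.2 and 13.2 (Ppara KO), and 9.00 and 11.4 (DKO). Both Ppara-null genotypes were above the Ppara-intact ones (log2 difference 0.98, rank 135), and DKO livers were below Ppara KO livers. It was the 1 of 7 member H3K27ac intervals that passed for Cpt2, with a log2 difference of −0.65 (SE 0.18, adjusted p 0.0356, limma), where 12.3% of all intervals passed, 4.9% as higher and 7.38% as lower. That call was lost when any library other than WT replicate 1 was left out (log2 difference −0.72 to −0.58 over the 8 libraries left out in turn, adjusted p 0.0355 to 0.135), and under no centring, where the strongest interval passed in its place as higher (0.79, adjusted p 0.0124). The strongest interval also passed when WT replicate 2 was left out (0.71, adjusted p 0.0253). The call of the adjoining interval was also lost with the smallest peak width as a covariate (adjusted p 0.910). The smallest H3K27ac peak was 198 to 210 bases wide in libraries with Cpt2 and 217 to 223 bases in libraries without it, so width and Cpt2 state cannot be told apart, and no interval of the whole mark passed for Cpt2 in that fit. Without centring, the median Cpt2 difference of all intervals moved from −0.01 to 0.25, and passing intervals moved from 896 higher and 1349 lower to 3504 higher and 432 lower.

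The last of the 3, chr8:106632381-106634604, centred 30.1 kb inside, differed less, with 9.57 and 9.48 (WT), 12.9 and 12.5 (Cpt2 KO), 13.0 and 14.0 (Ppara KO), and 11.1 and 13.9 (DKO). The Ppara groups overlapped, and the Ppara log2 difference was 0.21. The increase at Cdh1 was therefore not the same along the gene.

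**Figure D3:**
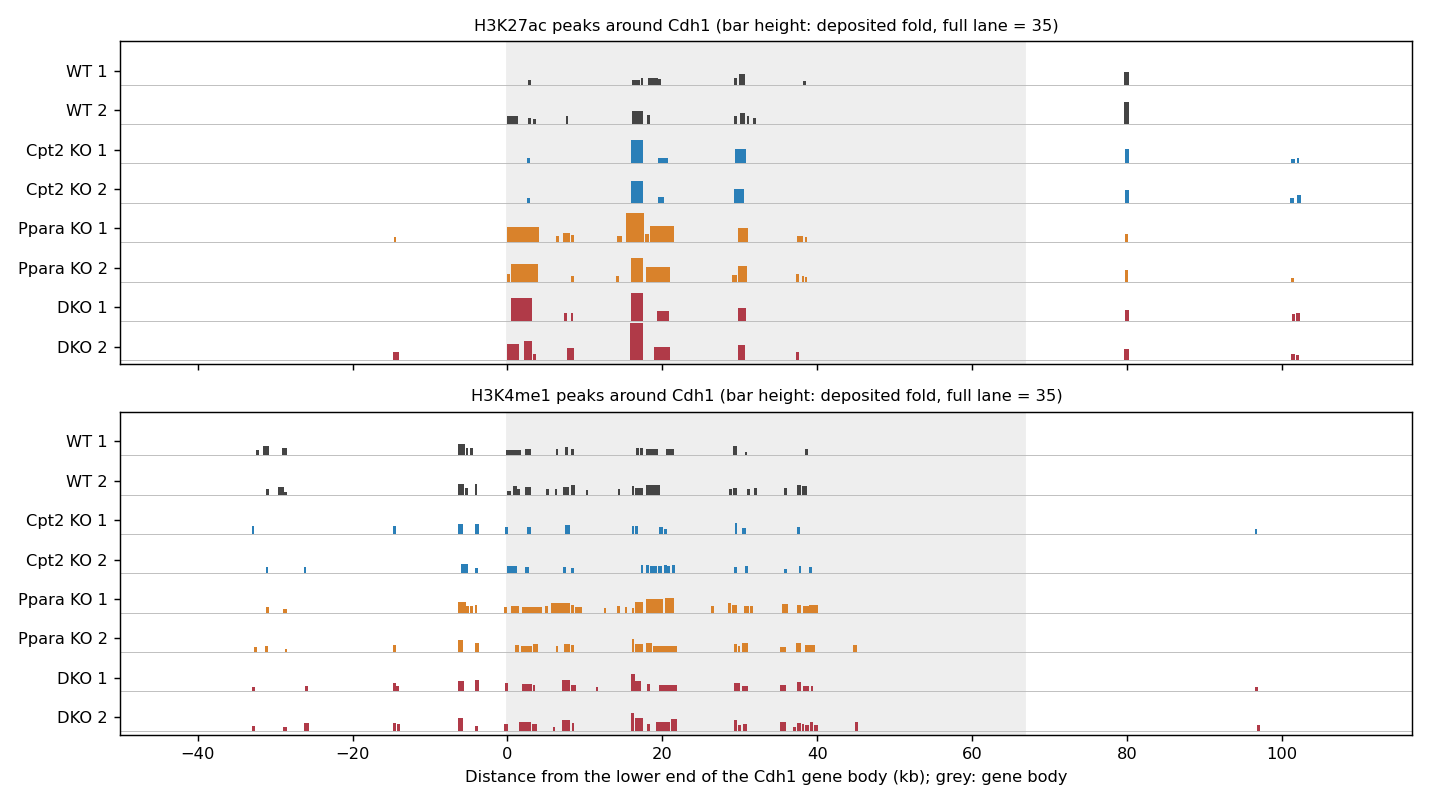
Peaks of each library around Cdh1, drawn by distance in kb from the lower end of the gene body (grey), with H3K27ac above and H3K4me1 below; bar height is the deposited fold on a scale where a full lane is 35, and narrow peaks are drawn slightly wider than they are. The block of H3K27ac at the gene's start is tall and broad in the 4 lower lanes (13.8 to 20.8), the one centred at 16.4 kb is low in the WT lanes only, and the peak of Tango6 near 80.0 kb is lower without Ppara (7.5 to 10.7 against 11.5 to 19.2).

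Other H3K27ac intervals nearest to Cdh1 were called in some libraries only. The interval 106610513-106611984 was called in WT replicate 2 (6.99) and in all Ppara-null livers (8.19, 5.25, 7.0 and 10.5), and it would meet the rule for a gained interval without that WT library. The interval 106640654-106642058 was called in WT replicate 1 (3.22), both Ppara KO livers (5.40 and 6.47) and DKO replicate 2 (7.22). The interval 106617488-106618182 was called in both Ppara KO livers (5.75 and 4.58) and in no other. Single calls were at 106609633-106610022 in Ppara KO replicate 1 (5.14, a pattern of 3.2% of all H3K27ac intervals) and at 106635062-106635439 in WT replicate 2 (5.72). Below the gene, 106588607-106589393, in the body of 1110028F18Rik, was called in Ppara KO replicate 1 (4.20) and DKO replicate 2 (7.58). None of the 13 H3K27ac intervals around Cdh1 met the rule for gained or lost without Ppara, against 1.63% and 1.73% of all intervals.

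H3K27ac peaks covered 4.69 and 5.68 kb of the Cdh1 body (WT), 4.34 and 3.92 kb (Cpt2 KO), 14.4 and 11.5 kb (Ppara KO), and 7.47 and 8.85 kb (DKO). The Ppara KO livers had the most and the DKO livers came between them and the Ppara-intact livers. For H3K4me1 the same lengths were 7.84 and 10.4 kb, 4.01 and 7.04 kb, 18.8 and 13.6 kb, and 11 and 13.0 kb. The order of the genotypes thus differed from Spon1, where the DKO livers had the longest stretches of both marks. How often other genes show either order was not counted.

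**Figure D4:**
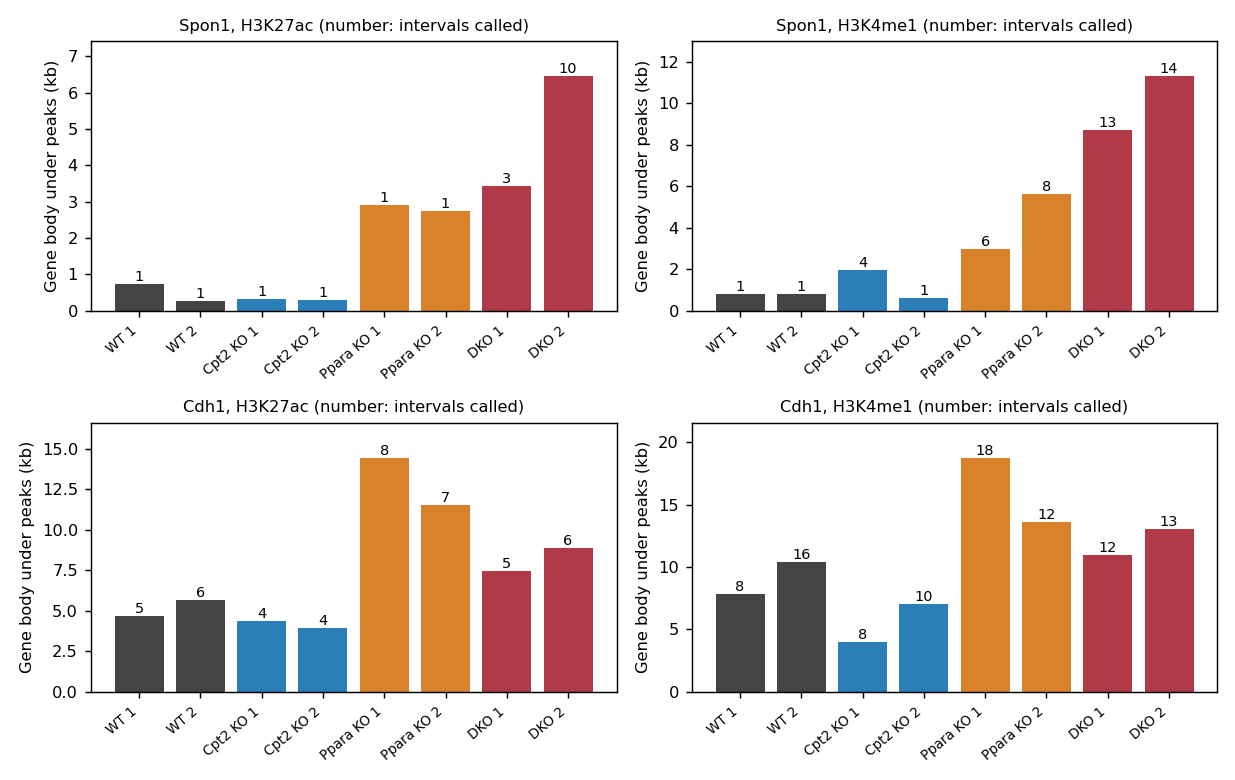
Kilobases of the Spon1 (top) and Cdh1 (bottom) gene body under deposited peaks in each library (bars, axis from 0), for H3K27ac (left) and H3K4me1 (right), with the number of consensus intervals called above each bar. In Spon1 the DKO libraries have the longest coverage (up to 11.3 kb of H3K4me1), and in Cdh1 the Ppara KO libraries have the longest H3K27ac coverage (14.4 and 11.5 kb). Coverage of other genes was not counted.

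H3K4me1 intervals around Cdh1 were more numerous than H3K27ac intervals. None of the 34 was gained or lost without Ppara, against 1.96% and 2.84% of all H3K4me1 intervals. These counts are near those shares. Calls in at least 1 Ppara-null and no Ppara-intact library made up 8 of the 34 (16.7% of all H3K4me1 intervals), of which 4 were in Ppara KO replicate 1 alone (3.83% of all H3K4me1 intervals). Of the 7 called in all 8 libraries, all nearest to Cdh1, none passed for Ppara, and their Ppara log2 differences were 0.10 to 0.47 with adjusted p of 0.289 to 0.870 (limma). The interval with the largest difference, chr8:106619835-106620916, lies under the strongest H3K27ac interval and had folds of 6.55 and 6.17 (WT), 6.86 and 7.11 (Cpt2 KO), 9.5 and 7.16 (Ppara KO), and 9.21 and 11.8 (DKO). Just below it, 106619348-106619769 was called in 6 libraries, at 7.82 in WT replicate 2, 7.24 in Cpt2 KO replicate 1, 4.29 and 11.4 in the Ppara KO livers, and highest in the DKO livers (15.3 and 15.7). The strongest H3K4me1 interval called in all libraries lay below the gene at 106596904-106598271, with 8.0 to 10.3 in Ppara-intact and 9.25 to 11.5 in Ppara-null livers, which overlap.

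Over both genes, 0 of the 12 H3K4me1 member intervals called in all libraries passed for Ppara in limma, and 4 had an unadjusted p under 0.05 (13.9% of all intervals). For Cpt2 none passed, nor did any of the 19526 intervals, with 0 members and 9.81% of all at an unadjusted p under 0.05. For the interaction none passed either, with 0 members and 2.9% of all unadjusted. Every Ppara-null value exceeded every Ppara-intact value, after centring, at 2 of the 12, both in the Spon1 window, against 2.71% of all intervals. For H3K27ac the same held at 4 of 7 member intervals (3.83% of all), and the reverse at 1 (4.37% of all), but this is the contrast by which the genes were chosen. For H3K27ac, 0 of 7 member intervals passed for the interaction, where 0.00547% of all passed, and 1 had an unadjusted p under 0.05 (15.2% of all). Comparing DKO with Ppara KO livers alone, 0 of 10 member intervals passed, where 0.00426% of all passed, and 1 had an unadjusted p under 0.05 (15.3% of all). Without centring the median of all intervals moved from 0.01 to 0.33 in that comparison, and from 0.03 to 0.12 for the interaction, and the members' counts stayed at 0. With centring, the Spon1 interval differed by −0.27 between DKO and Ppara KO livers (SE 0.20, adjusted p 0.549) and the Cdh1 start interval by 0.01 (SE 0.23, adjusted p 0.986). The sign at Spon1 depends on centring, since the means of the deposited folds were 23.2 in DKO and 21.8 in Ppara KO livers. The Cpt2 difference of the Spon1 interval over all 8 libraries was −0.57 (SE 0.19, adjusted p 0.0650).

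Next to Cdh1, the start of Tango6, which encodes a protein of transport and Golgi organization, went the other way. The H3K27ac interval chr8:106682989-106683629 had folds of 11.7 and 19.2 (WT), 12.9 and 11.5 (Cpt2 KO), 7.5 and 10.7 (Ppara KO), and 9.54 and 9.63 (DKO). Every Ppara-null liver was below every Ppara-intact liver, with a log2 difference of −0.58 (SE 0.18, rank 17195 of 18281). After centring, 4.37% of all H3K27ac intervals had this order, and here the states were barely apart. The nearest centred log2 values were −0.053 (Ppara KO replicate 2) and −0.041 (Cpt2 KO replicate 2). As the contrast is the one by which the genes were chosen, these values are a description without a test. H3K9ac was called in this interval in WT and in Cpt2 KO. Further inside Tango6, 106705190-106705881 was called in both Cpt2 KO livers (4.62 and 6.80), both DKO livers (7.22 and 4.96) and no other, the 1 H3K27ac member interval gained without Cpt2, against 4.5% of all intervals, and 0 were lost, against 2.49%. A weaker one beside it, 106704482-106705102, was called in 5 libraries (3.60 to 6.00). Of the H3K4me1 intervals around Cdh1, 3 of 34 were gained without Cpt2, against 1.41% of all, 0 were lost, against 1.3%, and none of the 3 was nearest to Cdh1. Those nearest to Cdh3, which encodes P-cadherin, were 106570372-106570655 (7.5 in Cpt2 KO replicate 1, 4.0 and 4.57 in DKO) and 106577092-106577774 (5.75 in Cpt2 KO replicate 2, 4.6 and 7.18 in DKO). The one in Tango6, 106699884-106700587, had 4.0 in Cpt2 KO replicate 1 and 4.2 and 5.56 in DKO livers.

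The Tango6 promoter is shown because it is the start of the next gene above Cdh1. The H3K27ac folds there were lower in the Ppara-null livers, which was described and not tested. Of the 5 genes of these windows looked up by symbol (Spon1, Cdh1, Rras2, Tango6 and Cdh3), 2 matched in the RefSeq promoter table, Tango6 and Rras2. The 250 bases before the Tango6 start, chr8:106682818-106683067 on the plus strand of GRCm38.p6, are given 5′ to 3′ from RefSeq, with the 79 bases inside the H3K27ac interval in capitals.
Tango6 promoter: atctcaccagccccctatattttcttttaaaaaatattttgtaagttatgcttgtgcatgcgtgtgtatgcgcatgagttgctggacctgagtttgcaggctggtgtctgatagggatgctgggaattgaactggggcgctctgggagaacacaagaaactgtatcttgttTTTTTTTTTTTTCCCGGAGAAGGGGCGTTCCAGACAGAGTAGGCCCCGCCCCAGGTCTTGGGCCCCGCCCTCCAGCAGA

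The intervals just inside and just outside the windows were weak, apart from the start of Rras2. Around Spon1, the outermost H3K27ac interval inside, 36224 bases beyond the upper end, had folds of 4.17 to 7.0 in 4 libraries, and the nearest one outside, at the start of Rras2, had 11.5 to 19.2 in 8 libraries. Around Cdh1, the outermost inside on the upper side had 4.62 to 7.22 in 4 libraries, and the nearest outside had 5.70 in 1 library. On the lower side of Cdh1 the values were 4.20 and 7.58 inside and 5.52 and 6.88 outside, in 2 libraries each.

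Among all 26449 H3K27ac intervals compared, those most like the Spon1 interval in log2 fold over the 8 libraries, with uncalled libraries set to their lowest fold, were nearest to Dlgap1 (Pearson r 0.983), Dhrs1 (0.982), Tgfb2, Agxt2 and Eif3a (0.981 each). The Dlgap1 interval had 6.76 to 8.20 with Ppara and 18.5 to 27.1 without it, and the other 4 were called in the Ppara-null libraries only. Those most like the strongest Cdh1 interval were nearest to Cxadr (0.994), Jph4 (0.991), Slc17a5 (0.990), Gstm3 (0.989) and Sergef (0.988). The interval nearest to Cxadr, which encodes an adhesion protein of tight junctions, lay 34912 bases from that gene body. It had 6.46 and 11.1 (WT), 16.2 and 15.4 (Cpt2 KO), 18.1 and 18 (Ppara KO), and 19.1 and 22.1 (DKO). Those nearest to Tgfb2, Jph4 and Slc17a5 were 41297, 39732 and 15960 bases away, so the gene that such an interval serves is not known. These correlations describe the same 8 libraries for every interval.

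Genes of cadherin adhesion were compared in the same way. For each gene the strongest H3K27ac interval called in all 8 libraries was taken, and Spon1 and Cdh1 were left out. Of 23 cadherin adhesion genes tested, 0 were higher and 2 lower without Ppara, with a median log2 difference of −0.07, against 2.14% higher and 4.35% lower and a median of −0.05 over all 9199 genes, so that the count of 0 is near the share over all genes. The 2 were Nectin3, which encodes an adhesion protein that works beside cadherins, and Pard3, which encodes a polarity protein. Nectin3 had folds of 17.5 and 27.3 (WT), 9.73 and 14.5 (Cpt2 KO), 6.67 and 8.75 (Ppara KO), and 7.18 and 7.13 (DKO), and its log2 difference was −1.15 (SE 0.20, adjusted p 0.00512, limma). Each of its Ppara-null values was below each Ppara-intact value. Pard3 (−0.73, adjusted p 0.0144) had 32.0 to 50.1 in Ppara-intact and 14.6 to 25.9 in Ppara-null livers. Its call was lost when WT replicate 2, Cpt2 KO replicate 2, Ppara KO replicate 1 or DKO replicate 2 was left out (adjusted p 0.0547 to 0.0643), and Nectin3 passed with each library left out. Cdh2, which encodes N-cadherin, differed by −0.24 (adjusted p 0.474) and Ctnnb1, which encodes beta-catenin, by −0.39 (adjusted p 0.362).

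Among 17 regulators of Cdh1 tested, 1 was higher and 1 lower, with a median of −0.09, against 2.14% higher and 4.35% lower of all genes, so that these counts are near those shares. Zeb1, a known repressor of Cdh1, was lower without Ppara, with folds of 25.4 and 35.8 (WT), 12.6 and 14.8 (Cpt2 KO), 11.8 and 10.2 (Ppara KO), and 11.7 and 9.52 (DKO). Its log2 difference was −0.95 (SE 0.18, adjusted p 0.00768, limma), and the WT livers stood above all the others. Twist2, of the family of basic helix-loop-helix repressors, was higher, at 5.38 to 7.78 in Ppara-intact and 10.9 to 17.8 in Ppara-null livers (log2 difference 0.96, adjusted p 0.0110). Snai1 (−0.26, adjusted p 0.691) and Hnf4a (0.14, adjusted p 0.608) did not pass.

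**Figure D5:**
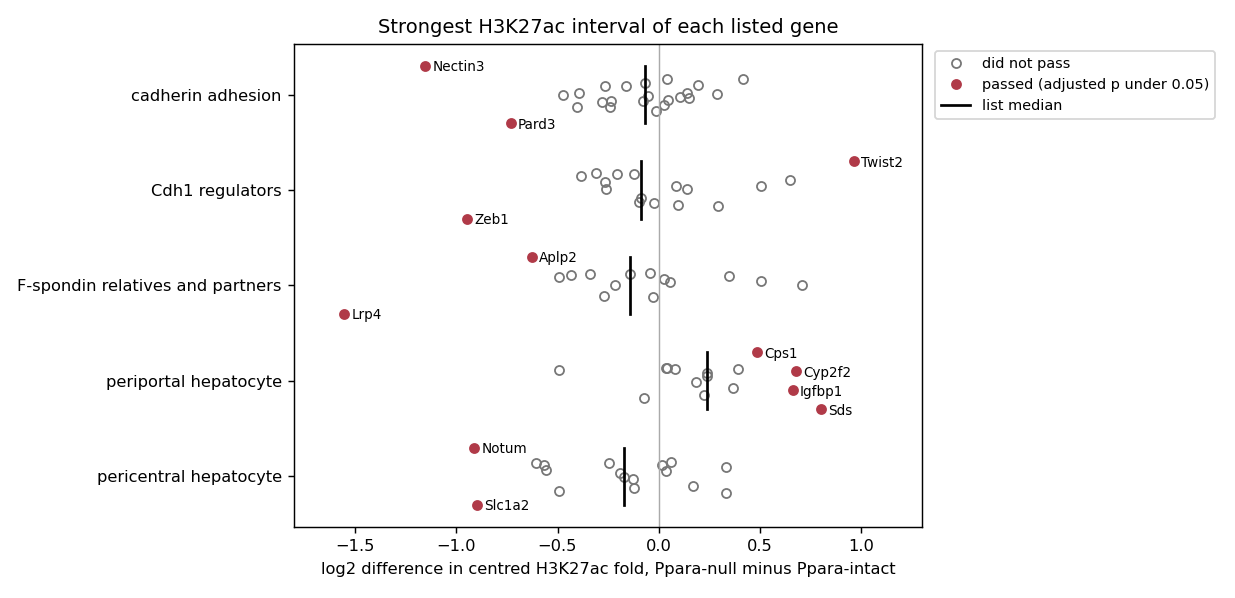
Log2 difference in centred H3K27ac fold between 4 Ppara-null and 4 Ppara-intact libraries (horizontal axis) at the strongest interval of each listed gene; filled points passed at an adjusted p under 0.05 (limma), open points did not, and vertical lines are list medians. The 4 filled points of the periportal list lie to the right (0.49 to 0.80) and the 2 of the pericentral list to the left (−0.91 and −0.90). Those of the cadherin (−1.15 and −0.73) and F-spondin (−1.55 and −0.63) lists also lie to the left, and the regulators have 1 on each side (−0.95 and 0.96).

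Among 15 relatives and partners of F-spondin tested, 0 were higher and 2 lower, with a median of −0.14, against 2.14% and 4.35% of all genes and a median of −0.05. Lrp4, which encodes a lipoprotein receptor relative, had 26.5 and 39.2 (WT), 23.4 and 28.5 (Cpt2 KO), 7.85 and 10.8 (Ppara KO), and 11.3 and 10.6 (DKO). Its log2 difference was −1.55 (SE 0.17, adjusted p 0.000331, limma), so that Lrp4 was clearly lower in each Ppara-null liver. Aplp2, an amyloid precursor protein relative, differed by −0.63 (adjusted p 0.0252), a call lost when any library other than WT replicate 1 or Ppara KO replicate 1 was left out, while Lrp4 passed with each left out. Without WT replicate 1, 4 genes of the list passed. App itself, whose product binds F-spondin, had 6.38 to 14.3 with Ppara and 11.9 to 18 without it (0.71, adjusted p 0.0722), and the F-spondin relative Spon2 differed by −0.43 (adjusted p 0.179).

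Since E-cadherin is known as higher near the portal vein, genes of both ends of the liver lobule were listed. Of 15 periportal genes tested, 4 were higher and 0 lower without Ppara, with a median of 0.24, against 2.14% higher and 4.35% lower of all genes and a median of −0.05. They were Sds, which breaks down serine (12.5 to 16.1 in Ppara-intact and 19.0 to 37.4 in Ppara-null livers, log2 difference 0.80, adjusted p 0.0139), Cyp2f2 (0.68, adjusted p 0.0371), Igfbp1 (0.66, adjusted p 0.0469) and the urea cycle gene Cps1 (0.49, adjusted p 0.0304). Pck1 (0.24, adjusted p 0.290) and Hal (0.08, adjusted p 0.815) did not pass. Of 17 pericentral genes tested, 0 were higher and 2 lower, with a median of −0.17, against the same shares of all genes. They were Notum, whose product inhibits Wnt proteins (9.64 to 37.0 with Ppara and 7.20 to 12.5 without it, −0.91, adjusted p 0.0198), and Slc1a2 (−0.90, adjusted p 0.0204). Slc1a2, a glutamate transporter gene, had its high values in the Cpt2 KO livers (20.5 and 14.6, against 7.81 and 7.09 in WT and 5.0 to 8.97 in Ppara-null livers). Glul (−0.56, adjusted p 0.172) and Cyp2e1 (−0.19, adjusted p 0.491) did not pass. Both counts depended on single libraries. No periportal gene passed without Cpt2 KO replicate 2 or without Ppara KO replicate 2, and 1 to 2 passed without WT replicate 2, Cpt2 KO replicate 1, Ppara KO replicate 1 or either DKO replicate. No pericentral gene passed without DKO replicate 1, 4 passed without WT replicate 1, and 1 passed without each of WT replicate 2, both Cpt2 KO and both Ppara KO replicates.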

How the data were processed

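Chromatin of mouse liver was profiled by ChIP-seq. Reads were aligned with BWA, peaks were called with MACS2 2.1.0 and the build was mm10, per the submitters' processing notes. The authors deposited a peak list per library, with a fold enrichment (a linear ratio) and −log10 p and −log10 q values for each peak, and consensus intervals for each mark. The weakest deposited −log10 p was 7.02, so that an interval without a call may hold a weaker signal. In 1 library (H3K27ac, Ppara KO replicate 2) the peak names carry another build word, and 83.9% of its peaks overlapped those of its replicate, against 80.9% to 83.0% in the other genotypes of that mark.

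From these, the peak fold of each interval and library was taken as the highest fold of peaks overlapping by at least 1 base. Intervals called in all libraries of a fit were compared on log2 peak fold, centred on each library's median, with limma 3.58.1 in R 4.3.3 (lmFit, then eBayes with a trend), with genotype means as terms and Benjamini-Hochberg adjustment over all intervals of the mark. The contrasts were Ppara state, Cpt2 state, their interaction, and DKO against Ppara KO within Ppara-null livers. The procedure was tested on simulated data. Gene bodies came from RefSeq (GRCm38.p6), whose table here gives neither strand nor exons. The genes, members and lists were chosen with earlier results of these data known. Named were the member intervals gained, lost or passing a test, the interval across each gene's start, the strongest interval of each mark, listed genes that passed and 2 of each list that did not. The intervals of like pattern were the 5 of highest Pearson correlation, 1 for each gene. Alternatives were no centring, quantile normalization, filling uncalled libraries, a −log10 q of at least 10, 50% overlap, a window of 10 kb, 4 of 4 calls, the smallest peak width as a covariate, the replicate number as a block, and each library left out. H3K9ac, with 1 liver in each of 2 genotypes, was used for positions only.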

Additional observations from a re-analysis of the deposited data

Results flagged for a closer look

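At the H3K27ac interval chr8:106632381-106634604 in Cdh1, both Cpt2 KO livers were above both WT livers after centring, and both DKO livers were below both Ppara KO livers. By the deposited folds, DKO replicate 2 (13.9) was above Ppara KO replicate 1 (13.0). The centred values of WT replicate 1 (−0.049) and Cpt2 KO replicate 1 (−0.016) were close. The share of all intervals with this opposite order was not counted for H3K27ac or for H3K4me1. Subtracting the Cpt2 effect with Ppara from the one without Ppara gave −0.62 (SE 0.32, log2), and this difference did not pass (adjusted p 0.385, limma).

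After centring, the same opposite order appeared in H3K4me1 at the overlapping interval chr8:106633596-106634627. The deposited folds were 3.22 and 5.26 (WT), 5.50 and 6.18 (Cpt2 KO), 6.29 and 7.88 (Ppara KO), and 4.89 and 6.33 (DKO). By these, DKO replicate 2 (6.33) was just above Ppara KO replicate 1 (6.29). On the centred log2 scale it was just below (−0.263 against −0.255). The difference of the Cpt2 effects was −0.82 (SE 0.42) and did not pass either (adjusted p 0.9995, limma). Both marks came from the same livers.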

How the results depend on the processing

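With 2 livers a genotype, peak lists in place of read counts and no call below the caller's limit, changes at weak intervals can be missed or overstated. The H3K27ac count gained around Spon1 went from 1 to 0 at a −log10 q of at least 10 or a 10 kb window, and that around Cdh1 from 0 to 1 at that −log10 q. H3K4me1 intervals gained around Spon1 went from 5 to 2 when all 4 calls were required. H3K27ac member intervals passing for Cpt2 went from 1 to 3 with uncalled libraries filled and to 0 with the width covariate. With that covariate 1 gene passed in each of the cadherin (from 2), F-spondin (from 2), periportal (from 4) and pericentral (from 2) lists. F-spondin genes passing were 1 without centring and 5 with uncalled libraries filled, and periportal genes were 2 without centring. The cause was not tested. Leaving out single libraries gave ranges of 1 to 1 and 0 to 1 for H3K27ac gained around Spon1 and Cdh1, 2 to 8 and 0 to 1 for H3K4me1 gained around them, 0 to 1 for H3K27ac passing for Cpt2, 0 to 0 for the interaction and for DKO against Ppara KO, and 0 to 1 for H3K4me1 passing for Ppara. For the lists they were 1 to 3 (cadherin), 2 to 3 (regulators), 1 to 4 (F-spondin), 0 to 4 (periportal) and 0 to 4 (pericentral). Lrp4, Nectin3, Zeb1 and Twist2 passed under all 15 alternatives, Sds and Slc1a2 under 12, Pard3 and Notum under 10, Cyp2f2 under 8, Aplp2 under 7, Cps1 under 6 and Igfbp1 under 5. Of the Ppara, Cpt2 and interaction differences followed through the alternatives at single intervals and listed genes, none changed sign. The DKO against Ppara KO differences were not among them, and the sign of that at Spon1 depends on centring, as given above. The 1 member interval passing for Cpt2 was a lower one as reported and another, higher one without centring or without WT replicate 2. The replicate numbers do not pair the livers (correlations of deviations between genotypes −0.49 to 0.17). With the replicate block, 1 member interval passed for Cpt2, the same Cdh1 interval (−0.65, adjusted p 0.0361, limma), 0 passed for the interaction, for DKO against Ppara KO and for each H3K4me1 contrast, and the lists had 2 (cadherin), 2 (regulators), 2 (F-spondin), 3 (periportal) and 2 (pericentral) genes.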
